A study of Mus musculus with 12 samples.

Results

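The loci described here were stretches of the mouse genome that the transcript assembly of the hearts listed apart from the gene models, and whose description lacked the tag (mitochondrion). They were chosen by the identifier that the table gives to rows outside the annotation (as in Novel00075), by a protein description without the mitochondrial tag, and by a mean of at least 20 counts over the 12 libraries. Loci described as mitochondrial proteins without that tag, such as manganese superoxide dismutase, were kept. Of the 43686 rows, 2590 were unannotated, 6 of those had the mitochondrial tag, and 1509 met the whole rule. The rule used the mean over both groups and not the difference between them. In 132 of these loci the WT mean was under 20 counts and in 105 the KO mean was, so these 132 and 105 were members only through the group where they were high, and a difference in that direction was built into their choice. The remaining 1272 reached 20 counts in both groups, and the counts of all loci called higher or lower in KO are given for them too. Those by position, by description group and against the nearest row are not.

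Bulk RNA was sequenced from the ventricular wall of 6 WT and 6 KO hearts of mice labelled as C57BL/6 and 2 months old. The study's methods give the background as C57BL/6J, and its text gives a younger age for the sequenced hearts, so the age is uncertain. Both groups carried the floxed allele Sdhaf4 fl/fl, in which loxP sites flank the first exons of the gene for the complex II assembly factor SDHAF4. The KO mice, labelled Sdhaf4-/-, also carried Ckmm-Cre, which is driven by the muscle creatine kinase promoter in cardiac and skeletal muscle, so the non-muscle cells of a KO heart keep the gene, and the WT mice were littermates without Cre. Sdhaf4 itself fell from 25.2 ± 5.80 CPM (counts scaled to library size, SD, n = 6) in WT to 2.40 ± 0.170 CPM in KO, with no overlap (exact permutation test, two-sided, p = 0.00216). The libraries held 23747014 to 27159228 counts in WT and 26542930 to 31393393 counts in KO. Among marker lists, the 5 atrial myocyte genes had the largest shift (3 of 3 tested higher, summed level 160.1 to 413 CPM in WT and 7429 to 15691 CPM in KO). That list includes Nppa, a natriuretic peptide gene that the paper measured (as Anp) in left ventricle. Whether atrial tissue had a part in this shift was not tested. Of 8 endothelial genes 5 were higher and 2 lower (1410.05 to 1588 CPM in WT and 1611 to 1882 CPM in KO). The 8 fibroblast genes were all higher in KO (summed level 1420 to 1670.5 CPM in WT and 2584 to 4867 CPM in KO), 6 of 10 cardiomyocyte genes were lower, and the 7 macrophage genes measured had summed levels of 252 to 350.1 CPM in WT and 249.7 to 361 CPM in KO.

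When reads are aligned to a genome and then joined into transcripts, everything that matches no gene model is left as an unannotated locus. Several kinds of transcript end up there: genes that the gene models in use lack, extensions beyond the ends of known genes, noncoding RNA, transcribed copies of other genes inserted by retrotransposition, and remnants of retroviruses and LINE-1 elements. Reads of a recent copy cannot always be separated from those of its parent gene.

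The loci that could be tied to a gene are the easiest to read, and the promoters of 4 such genes show which transcription units are meant. They are printed as RefSeq gives them for build GRCm38.p6, from 250 bases before the start, 5′ to 3′ on the gene's strand. They are not the sequence of the loci in the coordinates used here, which was not analysed. Capitals mark matches, on either strand, to CATTCC (the core of the site read by TEAD factors in muscle genes), TATAAA or AGGTCA (a site of nuclear receptors). Over the 32851 promoters of the table, 12.6% hold CATTCC, 12.4% hold TATAAA and 14% hold AGGTCA in the same 250 bases.
Ankrd23 promoter, chr1:36535740-36535989, minus strand: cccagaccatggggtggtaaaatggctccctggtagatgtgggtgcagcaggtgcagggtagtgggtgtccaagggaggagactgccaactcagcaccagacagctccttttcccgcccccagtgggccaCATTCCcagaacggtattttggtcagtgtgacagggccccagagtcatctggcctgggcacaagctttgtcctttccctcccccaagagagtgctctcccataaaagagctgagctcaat
Acot2 promoter, chr12:83987611-83987860, plus strand: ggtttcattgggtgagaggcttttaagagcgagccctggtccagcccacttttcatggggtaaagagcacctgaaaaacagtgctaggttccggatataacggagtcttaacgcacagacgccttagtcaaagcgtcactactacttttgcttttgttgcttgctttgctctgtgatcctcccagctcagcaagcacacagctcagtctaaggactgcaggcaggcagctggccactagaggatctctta
Scn4a promoter, chr11:106349391-106349640, minus strand: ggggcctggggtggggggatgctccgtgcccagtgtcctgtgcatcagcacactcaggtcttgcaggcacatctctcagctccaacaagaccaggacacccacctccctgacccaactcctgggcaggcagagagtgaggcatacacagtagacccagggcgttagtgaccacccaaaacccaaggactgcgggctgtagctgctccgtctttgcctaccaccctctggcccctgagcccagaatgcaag
Selenbp1 promoter, chr3:94932833-94933082, plus strand: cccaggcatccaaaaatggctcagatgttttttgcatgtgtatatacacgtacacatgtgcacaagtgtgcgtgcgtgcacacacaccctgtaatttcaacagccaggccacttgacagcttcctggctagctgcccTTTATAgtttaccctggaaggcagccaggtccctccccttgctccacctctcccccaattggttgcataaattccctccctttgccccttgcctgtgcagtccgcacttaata
The Ankrd23 stretch, at one of its 2 listed starts, holds 1 match to CATTCC (the stretch at the other start holds none), the Selenbp1 stretch holds 1 match to TATAAA on the opposite strand, and the other two hold none of these letters.

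The 1509 loci held a small and steady part of each library. They took 1.44% to 1.64% of the counts in WT and 1.46% to 1.54% in KO, and 26.1% of those counts lay in the 10 highest loci. All 20 placed chromosomes had members, from 52 on chromosome 16 to 106 on chromosome 2 and 99 on chromosome 17, and 164 loci lay on 95 unplaced scaffolds. The assembled length ran from 149 to 14944 bases with a median of 1288, against a median of 2983 for the 15133 annotated rows tested. Only 536 loci (35.5%) were longer in the genome than in the transcript, the sign of splicing, against 93.9% of the annotated rows tested. The plus strand carried 783 and the minus strand 726. The median level was 2.12 FPKM (fragments per kilobase, scaled to library size) for the loci and 8.35 FPKM for the tested annotated rows.

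By their definition the loci lay apart from annotated genes, so little overlap with them was built in. Still, 4 overlapped an annotated row, 2 on its strand and 2 opposite. On the placed chromosomes, and leaving out those 4, the nearest annotated row was within 5 kb for 545 loci, 5 to 50 kb away for 566 and over 50 kb away for 230. Of the 545, 145 lay downstream of that row on its strand, 139 downstream on the other strand, 183 upstream on the other strand and 78 upstream on its strand. The protein description was a named protein for 453 loci and an anonymous one for 550, and 506 had none.

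Many loci came as mirrored pairs, with an unannotated locus on each strand of one region, overlapping over at least 80% of the shorter span. There were 223 such pairs with both loci among the members, formed by 433 loci. The weaker locus of a pair held a median of 15.9% of the counts of the stronger one (quartiles 11.2% and 22.3%), and in 218 pairs under 50%. The log2 fold changes of the 2 loci of a pair had Pearson's r = 0.93 over the 223 pairs, a description over loci that share libraries and sequence, and 197 pairs had the same sign. In 67 pairs both loci passed the test, all with the same sign. The strand setting used in counting is not stated, so the weaker locus is not shown to be a transcript of its own.

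**Figure D1:**
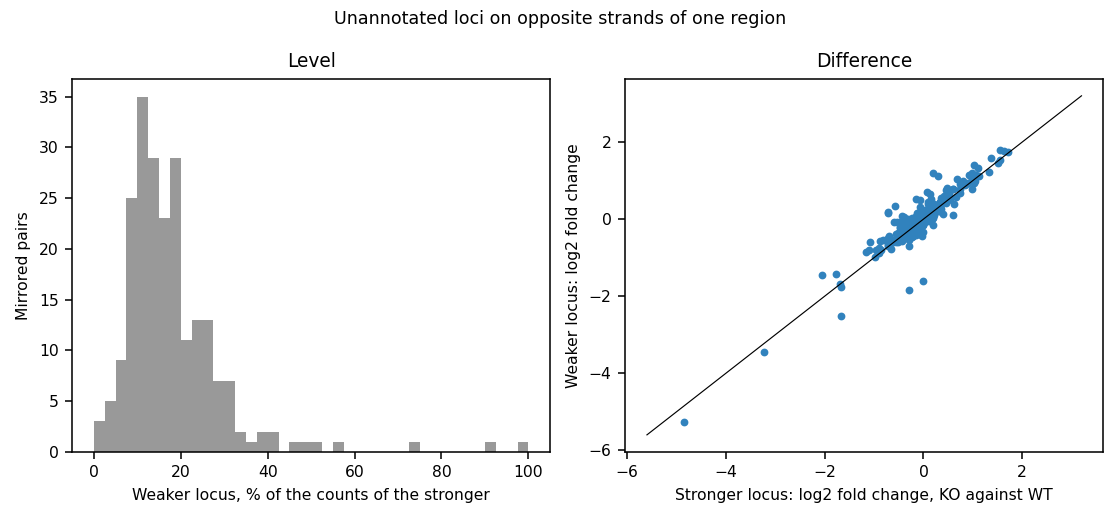
Left, the histogram of the counts of the weaker locus as a percent of those of the stronger, over the 223 mirrored pairs (vertical axis, number of pairs). Right, log2 fold change (KO against WT) of the weaker locus against that of the stronger, 1 point a pair, with the line of equal values; the median share is 15.9% and most points lie along the line.

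The comparison of KO with WT used edgeR's quasi-likelihood test on the counts of all rows, with Benjamini-Hochberg adjustment over the 17155 rows tested. Of the 1509 loci, 1507 could be tested: 325 rose and 373 fell at an adjusted p under 0.05. These are 46.3% of the loci, where 51.1% of all rows tested were called (25.6% higher, 25.5% lower). Of the 1272 loci with at least 20 counts in both groups, 249 rose and 281 fell, 41.7%. Under the study's stricter rule, an adjusted p under 0.005 and a log2 fold change over 1 in size, 125 rose and 149 fell, 18.2% of the loci, where 10.2% of all rows passed (5.36% higher, 4.87% lower). Of the loci past this rule, 50 that rose and 75 that fell were members through 1 group only. Of the 1272 loci, 75 rose and 74 fell past it, 11.7%. The shares of all rows were not limited to rows with 20 counts in both groups, so those of the 1272 cannot be compared with them directly. Among the 597 loci with at least 100 counts on average, 43 rose and 29 fell past the stricter rule (12.1%), and the balance turned from more falls to more rises. The median log2 fold change was -0.04 for the loci and 0.00217 for all rows tested. The 6 KO libraries did not overlap the 6 WT libraries in 404 loci (26.8%), against 30.1% of all rows. Counted once for each mirrored pair, 284 loci rose and 343 fell. Without the third KO library, which stood apart in several loci below, 317 rose and 405 fell.

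**Figure D2:**
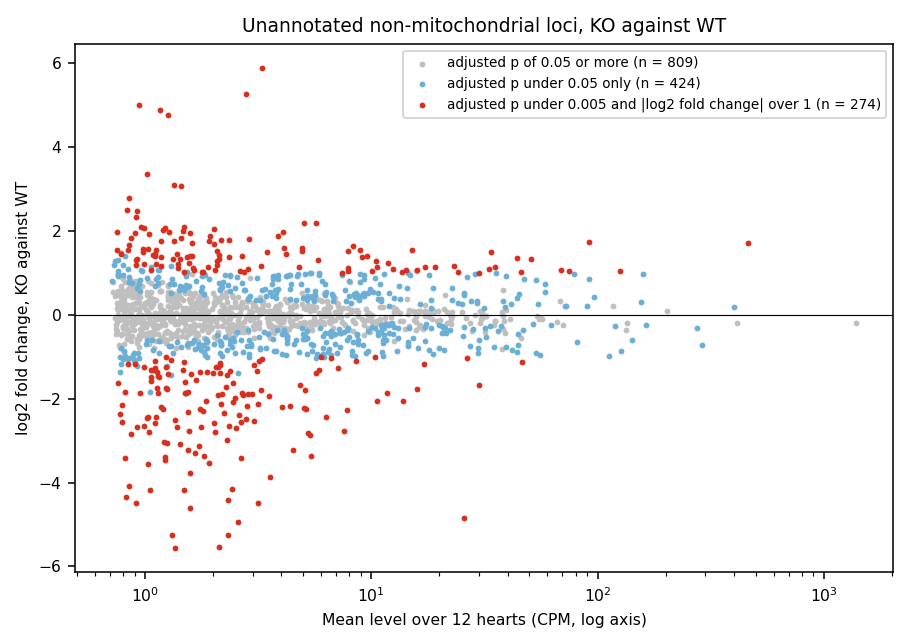
Log2 fold change, KO against WT, of the 1507 tested loci against their mean level over the 12 hearts in CPM on a log axis. Red points are the 274 loci past the stricter rule, blue points the 424 past an adjusted p of 0.05 only, and grey points the 809 that passed neither.

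By position, shares were read against the 51.1% of all rows called, 25.6% higher and 25.5% lower, and the 10.2% past the stricter rule. The classes include loci that were members through WT only or through KO only, whose direction was built into their choice. Counts and medians by position and by splicing were not computed without them, so a link between direction and position was not tested. The 430 placed loci that overlapped no other row and lay more than 5 kb from an annotated one counted 129 falls and 73 rises, and their median log2 fold change was -0.15. Those within 5 kb of an annotated row, 372 that overlapped no other locus, counted 92 rises and 70 falls, with a median of 0.07. The 537 tested loci that overlapped only another unannotated locus had 125 higher and 135 lower. On the scaffolds 35 were higher and 36 lower (43.3% of 164), and 13 (7.93%) passed the stricter rule. Spliced loci numbered 122 higher and 154 lower, and loci without splicing 203 higher and 219 lower.

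Some loci matched genes by both description and place. For 31 gene symbols that no row used here carries, the protein description of a locus named the gene, and RefSeq's gene order in GRCm38.p6 placed that gene between the same named neighbours as the locus. The descriptions were matched after the loci had been seen. Between the neighbours, RefSeq has 1 to 58 genes that no row carries, and for 13 of the 31 it has at most 3. Taking the highest locus of each gene, 13 of the 31 rose, 10 fell and 8 did not pass the test, where 25.6% of all rows were higher and 25.5% lower. Among the 13 rises, Novel01040, matched to C4b, was a member through KO only, so its rise was built into its choice. It had 0.247 ± 0.137 CPM in WT and 1.41 ± 0.769 CPM in KO. Of the 13 genes with at most 3 genes that no row carries, 5 rose, 6 fell and 2 did not pass. For the 26 genes with a strand in the promoter table, the highest locus was on the gene's strand in 26.

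Coordinates below are those of the table, whose identifiers belong to the C57BL/6NJ assembly, and values after ± are SD over 6 hearts unless marked SE. The highest of these loci was Novel00075 (chromosome 1, 36653797 to 36661046, minus strand), between Cnnm3 and Ankrd39, described as Ankrd23. Ankrd23 is a muscle ankyrin repeat protein that binds titin in the sarcomere. Its level was 144 to 299 CPM in the WT hearts (median 209) and 522 to 905 CPM in the KO hearts (median 719). Every KO heart was above every WT heart (log2 fold change 1.72 ± 0.17 (SE), adjusted p = 3.31e-06). Per length the level was 54.1 FPKM in WT and 178 FPKM in KO. The mirrored locus Novel00009 on the plus strand had 42 ± 10.9 CPM in WT and 141 ± 39.6 CPM in KO (log2 fold change 1.75, adjusted p = 3.41e-05). The neighbour Cnnm3 went the other way (log2 fold change -0.53).

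Novel01222 (chromosome 19, 42290276 to 42296792, plus strand), between Rrp12 and Exosc1, was described as Pgam1, the phosphoglycerate mutase of glycolysis. It had 31.7 to 36.7 CPM in the WT hearts (median 33.3) and 45 to 80.8 CPM in the KO hearts (median 61.4), without overlap (log2 fold change 0.85 ± 0.11 (SE), adjusted p = 1.87e-05). Novel00054, described as the cell surface protein Igsf8, rose from a narrow WT range, with 9.86 to 12.7 CPM in the WT hearts (median 11.9) and 13.9 to 16.4 CPM in the KO hearts (median 14.9) (log2 fold change 0.39, adjusted p = 5.43e-04). Both loci were higher in each of the 6 KO hearts than in any WT heart.

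Acot2, a thioesterase of the mitochondrial matrix that splits fatty acyl-CoA, was represented by 3 loci between Heatr4 and Acot1. Novel00415 (chromosome 12, 87079337 to 87080304, plus strand) had 59 to 82.9 CPM in the WT hearts (median 73.7) and 28.3 to 48.9 CPM in the KO hearts (median 38.3), and Novel00414, which spans it on the same strand, had 57.6 to 73.1 CPM in the WT hearts (median 61.3) and 20.8 to 40.4 CPM in the KO hearts (median 28). Both fell without overlap (log2 fold change -0.95, adjusted p = 8.51e-06 for the first; log2 fold change -1.11, adjusted p = 1.30e-05 for the second). The mirrored Novel00481 had 7.73 ± 1.07 CPM in WT and 4.46 ± 1.84 CPM in KO (log2 fold change -0.79, adjusted p = 0.00789). The annotated neighbour Acot1, a close paralog whose reads could be shared with Acot2, fell from 89.9 ± 10 CPM to 6.26 ± 2.17 CPM (log2 fold change -3.84), and relative to that row the 3 loci rose by 2.75 to 3.01 on the log2 scale. This comparison with the nearest row is described below with its test.

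Novel00357 (chromosome 11, 112961087 to 112998549, minus strand), between Cd79b and Prr29, carried the description of Scn4a, the voltage-gated sodium channel of skeletal muscle. Its level was 11.6 to 24.3 CPM in the WT hearts (median 18.2) and 2.47 to 9.34 CPM in the KO hearts (median 4.7) (log2 fold change -1.86 ± 0.28 (SE), adjusted p = 1.38e-04). The highest KO heart was the third, and the groups did not overlap. The 6 skeletal muscle markers summed to 1.25 to 10.2 CPM in WT and 0.828 to 4.61 CPM in KO; their part in this result was not tested.

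Novel01485 (chromosome 3, 99189381 to 99194438, plus strand), between Psmb4 and Rfx5, matched Selenbp1, a selenium-binding protein that oxidises methanethiol. It had 23 to 27.7 CPM in the WT hearts (median 24.4) and 5.65 to 9.54 CPM in the KO hearts (median 6.69) (log2 fold change -1.77 ± 0.12 (SE), adjusted p = 3.03e-09). The KO hearts lay far below the WT hearts, and the mirrored Novel01540 fell with it. Novel00156 (chromosome 10, 64762691 to 64828359, plus strand), between Hnrnph3 and Atoh7, was described as the phenazine biosynthesis-like protein of Pbld1, and it is 1 of the 4 loci that overlap an annotated row. It had 8.79 to 17.9 CPM in the WT hearts (median 13.3) and 1.48 to 3.6 CPM in the KO hearts (median 2.81) (log2 fold change -2.27, adjusted p = 4.54e-07).

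Ptp4a1, a protein tyrosine phosphatase attached to membranes, was matched by Novel00072 and Novel00073 between Phf3 and 4931428L18Rik, although 7 genes of that interval have no row. Novel00072 had 35.6 ± 5.46 CPM in WT and 17.6 ± 3.08 CPM in KO (log2 fold change -1.02, adjusted p = 4.65e-06), and Novel00073 had 37.6 ± 2.96 CPM in WT and 21.6 ± 3.01 CPM in KO (log2 fold change -0.80, adjusted p = 5.58e-07). Mgl2, a lectin of macrophages, was matched by Novel00282 beside its paralog Clec10a. This locus had 3.33 ± 0.543 CPM in WT and 0.880 ± 0.322 CPM in KO (log2 fold change -1.92, adjusted p = 3.40e-06), and Clec10a itself fell from 5.30 ± 0.905 CPM to 1.95 ± 0.273 CPM.

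**Figure D3:**
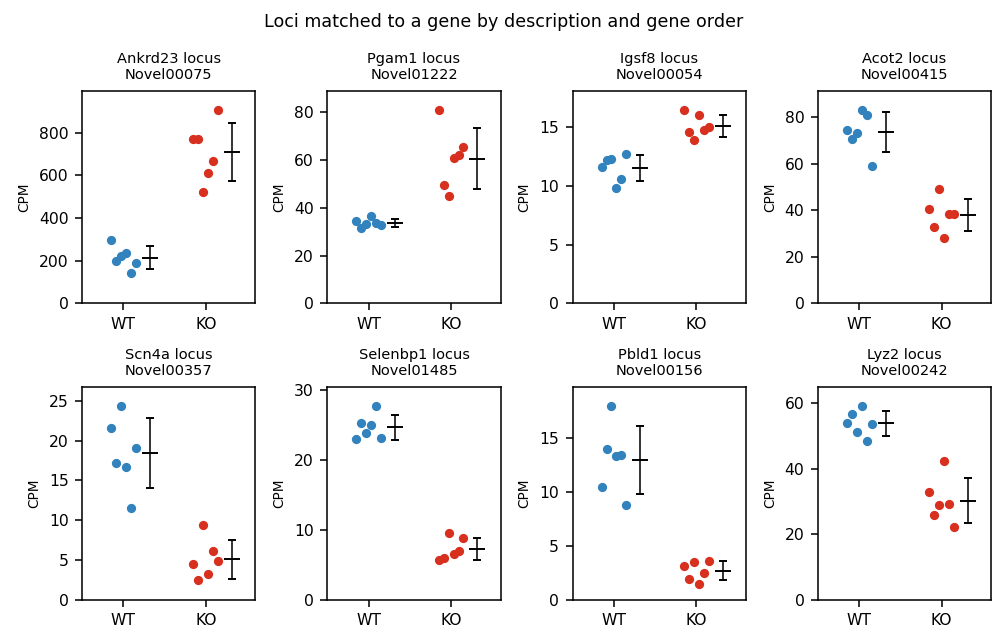
CPM in each heart for 8 loci matched to a gene by description and gene order, 1 panel a locus with its own axis from 0. Novel00242 is labelled by its match to Lyz2, but which lysozyme gene it represents is not settled. Blue points are the 6 WT hearts, red points the 6 KO hearts, and the bars give mean and SD; in the Ankrd23, Pgam1 and Igsf8 loci all KO points lie above the WT points, and in the Acot2, Scn4a, Selenbp1, Pbld1 and Lyz2 loci all lie below.

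The 4 lysozyme loci all fell. Lysozyme C-2, encoded by Lyz2, is a bacteria-degrading enzyme of macrophages and neutrophils. The scaffold locus Novel02413 had 147 to 178 CPM in the WT hearts (median 167) and 69 to 121 CPM in the KO hearts (median 91.3) (log2 fold change -0.85 ± 0.11 (SE), adjusted p = 9.69e-06), and Novel00242 on chromosome 10 had 48.3 to 59.1 CPM in the WT hearts (median 53.8) and 22.2 to 42.2 CPM in the KO hearts (median 29.1) (log2 fold change -0.83, adjusted p = 4.23e-05). All 4 loci with this description were lower in KO, with log2 fold changes of -0.94 to -0.80, and they may share reads. One scaffold locus, Novel02414, mirrors Novel02413. No row carries the symbols of the lysozyme genes Lyz1 and Lyz2. RefSeq has 2 genes without a row in the interval of Novel00242 and Novel00243, so which gene each of these loci represents is not settled. Among the 7 other macrophage markers 1 was higher and 2 were lower, and their summed levels overlapped between the groups; their part in this result was not tested. In bulk RNA, fewer cells of a type and less RNA per cell cannot be told apart.

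Copies of abundant genes made up several groups, listed here by the protein description. Here and below, the loci of a mirrored pair are counted apart, so a group with such pairs holds fewer regions than loci. The glycolytic enzyme glyceraldehyde-3-phosphate dehydrogenase (GAPDH) was the description of 22 loci, and Novel02537, described as a 37 kd protein, was counted with them. The 23 lay on 10 chromosomes and were 150 to 2259 bases long. Of these 22 rose and none fell, and without Novel02537 21 of 22 rose, where 25.6% of all rows rose. Among the rises, that of Novel02053 was built into its choice, as it was a member through KO only (0.521 ± 0.275 CPM in WT and 1.31 ± 0.416 CPM in KO). The 23 include several mirrored pairs, such as Novel01528 with Novel01473 and Novel00118 with Novel00057. The summed level of the 23, which adds both loci of such pairs, was 485 to 597 CPM in WT and 914 to 1316 CPM in KO. Among them 18 had a log2 fold change between 0.9 and 1.2. No row used here carries the symbol Gapdh, so the copies cannot be set beside the parent gene, and reads of near-identical copies cannot be assigned with certainty. The 2 highest were Novel01528 (chromosome 3, 62747101 to 62747585, minus strand), with 95.6 to 122 CPM in the WT hearts (median 106) and 192 to 237 CPM in the KO hearts (median 212) (log2 fold change 0.98, adjusted p = 5.12e-09), and Novel00118 (chromosome 1, 192769273 to 192772468, minus strand), with 73.5 to 94.2 CPM in the WT hearts (median 81.3) and 148 to 213 CPM in the KO hearts (median 162) (log2 fold change 1.05, adjusted p = 2.28e-08). The exception was Novel01755, with 12.3 ± 7.27 CPM in WT and 12.8 ± 7.29 CPM in KO.

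In the groups that follow, counts stand against 25.6% of all rows higher and 25.5% lower. The 11 loci described as translation elongation factors had 6 higher and none lower, and a median log2 fold change of 0.22. The highest, Novel01684 (chromosome 5, 32680676 to 32690951, plus strand), described as the ribosome translocase Eef2, had 336 to 403 CPM in the WT hearts (median 373) and 389 to 514 CPM in the KO hearts (median 412) (log2 fold change 0.20, adjusted p = 0.0245). It lost its call without the first or the sixth WT heart or without the sixth KO heart (log2 fold change from 0.13 to 0.18). The Eef2 row itself rose from 1273 ± 83.6 CPM to 1542 ± 86.3 CPM (log2 fold change 0.28). Of the 11 tubulin and actin loci, 6 were higher and none lower, with a median of 0.28. The 26 ribosomal protein loci had 3 higher and 2 lower, and the 18 zinc finger loci had none higher and 5 lower. Of these, the rise of the ribosomal Novel02383 and the fall of the zinc finger Novel02331 were built in, as each was a member through 1 group only.

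Of the 8 histone loci 6 were lower and none higher, where 25.5% of all rows were lower. Both loci of manganese superoxide dismutase with the higher levels, Novel02381 on a scaffold and Novel00946 (chromosome 17, 11079688 to 11105684, plus strand), were lower in KO. This enzyme, encoded by Sod2, converts superoxide in the mitochondrial matrix. Novel02381 had 284 to 326 CPM in the WT hearts (median 303) and 229 to 287 CPM in the KO hearts (median 239.8) (log2 fold change -0.30, adjusted p = 3.26e-04), with the third KO heart inside the WT range. Novel00946 had 172 to 184 CPM in the WT hearts (median 177) and 136 to 169 CPM in the KO hearts (median 147) (log2 fold change -0.25, adjusted p = 8.87e-04), with no overlap. Since both carry the same description, their reads may be shared.

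The retroviral and LINE-1 group, remnants of mobile elements, held 52 loci, 45 described so by name and 7 described as IgE-binding protein-like. Of the 52, 7 rose and 18 fell, 48.1%, where 51.1% of all rows were called. Some of these loci were members through 1 group only, so their direction was built into their choice. Among them were Novel01851 and Novel00879 for the rises, and Novel00464, Novel00519 and Novel01033 for the falls. The 45 had 7 rises and 13 falls and a median log2 fold change of -0.19, and the 7 had no rise and 5 falls. The median of the 52 was -0.24, and the values ran from -5.53 to 4.89. The highest, Novel00263, had 443 ± 62.8 CPM in WT and 385 ± 42.9 CPM in KO (log2 fold change -0.20, adjusted p = 0.081) and did not pass the test. The most extreme fall was Novel00464 (chromosome 12, 59404444 to 59463800, minus strand), described as a titin-L1 fusion protein, with 2.94 to 6.76 CPM in the WT hearts (median 3.91) and 0 to 0.180 CPM in the KO hearts (median 0.0703) (log2 fold change -5.53). This locus was a member through WT only, so a fall was built into its choice. In the opposite direction, Novel01851, a member through KO only, rose from 0.0718 ± 0.101 CPM to 2.26 ± 0.539 CPM.

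**Figure D4:**
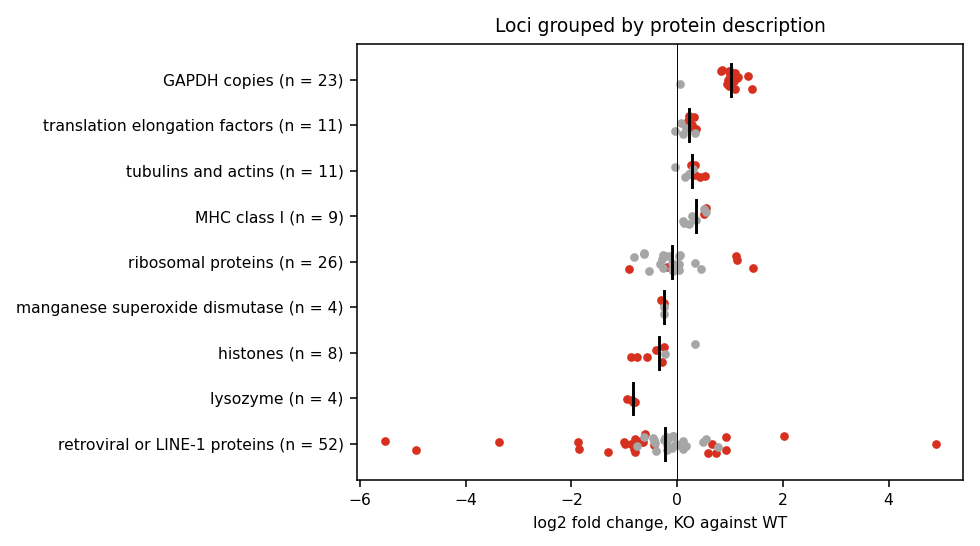
Log2 fold change, KO against WT (horizontal axis), of the loci of 9 description groups, 1 point a locus; red points passed an adjusted p of 0.05, grey points did not, and black bars are group medians. The GAPDH points cluster near a median of 1.03 with 1 grey point near 0, the 4 lysozyme points lie near -0.84, and the retroviral and LINE-1 points spread from -5.53 to 4.89.

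Immune genes were represented by several groups. The 9 loci of MHC class I, which presents peptides to T cells, had 2 higher, none lower and a median log2 fold change of 0.36, where 25.6% of all rows were higher. Leaving out single libraries gave 1 to 4 higher, and 1 in most cases, because the call of Novel00972 was lost without any of KO1, KO2, KO4, KO5, KO6, WT2, WT3, WT5 and WT6. The highest of them, Novel00969, had 195 ± 47.4 CPM in WT and 209.6 ± 27.1 CPM in KO (log2 fold change 0.10, adjusted p = 0.593). Of 14 loci for interferon-induced proteins 3 were higher and 2 lower. Novel02394, on a scaffold and described as the chemokine Exodus-2, which attracts lymphocytes and is made by lymphatic endothelium, had 8.6 to 38.9 CPM in the WT hearts (median 25.2) and 46.1 to 79 CPM in the KO hearts (median 62.7) (log2 fold change 1.36, adjusted p = 0.00241). The summed level of the 8 endothelial markers was also higher without overlap, with 5 of them higher and 2 lower. Their part in this result was not tested. Novel02302, on another scaffold and described as complement component C4, had 1.06 to 2.58 CPM in the WT hearts (median 1.82) and 6.32 to 11.5 CPM in the KO hearts (median 7.73) (log2 fold change 2.19 ± 0.23 (SE), adjusted p = 9.99e-07).

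Among the loci at 5 CPM or more, the largest rises without overlap mostly had an anonymous description or none. Novel00571 (chromosome 13, 9437000 to 9438163, minus strand) lay between Mtr and Heatr1 and had 1.62 to 2.66 CPM in the WT hearts (median 1.86) and 7.63 to 11.8 CPM in the KO hearts (median 9.06) (log2 fold change 2.20, adjusted p = 7.36e-09). Novel00702 (chromosome 14, 20181060 to 20186450, minus strand), 4966 bases from Slmap, a membrane protein of the sarcolemma, had 3.6 to 5.24 CPM in the WT hearts (median 3.86) and 9.83 to 17 CPM in the KO hearts (median 12.2) (log2 fold change 1.63, adjusted p = 3.77e-08). Its rise exceeded that of Slmap (difference 1.03 ± 0.15 (SE), adjusted p = 1.35e-04). Novel02045 (chromosome 8, 34656049 to 34657160, plus strand) lay 2542 bases downstream of the MAP kinase phosphatase gene Dusp4, on its strand, and had 3.54 to 6.2 CPM in the WT hearts (median 4.07) and 9.38 to 19.1 CPM in the KO hearts (median 12.9) (log2 fold change 1.55, adjusted p = 2.77e-06). Dusp4 itself rose from 9.92 ± 2.67 CPM to 34.6 ± 5.99 CPM, and the locus did not differ from it past the threshold (difference -0.30 ± 0.12 (SE), adjusted p = 0.0661). Novel00906 (chromosome 16, 28675060 to 28680026, minus strand) between Hes1 and Cpn2 had 5.45 to 9.95 CPM in the WT hearts (median 8.45) and 19.1 to 27.1 CPM in the KO hearts (median 21.8) (log2 fold change 1.54, adjusted p = 2.13e-07), and Novel01730 near Abcb1a had 4.09 ± 0.922 CPM in WT and 11.7 ± 1.73 CPM in KO (log2 fold change 1.52, adjusted p = 2.34e-07).

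The largest fall at this level was Novel00549 (chromosome 13, 107496992 to 107511261, plus strand), spliced and without a protein description, in the interval between Pik3r1 and Cd180 and 373421 bases from the nearest tested annotated row. It had 37 to 61.7 CPM in the WT hearts (median 50.4) and 0.722 to 4.17 CPM in the KO hearts (median 1.46) (log2 fold change -4.84 ± 0.34 (SE), adjusted p = 2.93e-07). The KO hearts were all far below the WT hearts, the third KO heart being the highest of them. Its mirrored locus Novel00631, a member through WT only, had 4.54 ± 0.584 CPM in WT and 0.114 ± 0.132 CPM in KO (log2 fold change -5.26), given as a description.

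Several other falls also showed no overlap. Novel02270 (chromosome 9, 94651559 to 94657141, minus strand), described by the LINE-1 protein ORF2, had 6.26 to 13 CPM in the WT hearts (median 10.1) and 0.321 to 2.28 CPM in the KO hearts (median 0.845) (log2 fold change -3.36, adjusted p = 5.61e-06). Novel00018 (chromosome 1, 63254374 to 63310644, plus strand), between Cd28 and Ctla4, which encode receptors of T cells, had 7.91 to 11.6 CPM in the WT hearts (median 9.16) and 0.505 to 2.75 CPM in the KO hearts (median 1.13) (log2 fold change -2.85, adjusted p = 2.82e-06). The T cell markers were barely present, with summed levels of 1.42 to 3.86 CPM in WT and 2.05 to 6.63 CPM in KO.

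Novel00391 (chromosome 12, 72644060 to 72645641, plus strand), between Tmx1 and Frmd6, had 10.9 to 15.1 CPM in the WT hearts (median 13.8) and 0.835 to 3.61 CPM in the KO hearts (median 1.89) (log2 fold change -2.78, adjusted p = 2.03e-06). Novel02243, near Thsd4, had 8.52 ± 0.787 CPM in WT and 1.8 ± 0.689 CPM in KO (log2 fold change -2.24, adjusted p = 6.40e-08). Novel01105 and Novel01106, neighbours on chromosome 18 between Hspa9 and Ctnna1, had 9.17 ± 3.91 CPM in WT and 1.28 ± 0.574 CPM in KO (log2 fold change -2.83, adjusted p = 7.64e-06) and 10.6 ± 3.47 CPM in WT and 1.96 ± 0.410 CPM in KO (log2 fold change -2.43, adjusted p = 6.31e-08). Ctnna1, the nearest tested annotated row to both, was higher in KO. Novel00213, between Gja1 and Hsf2, fell at a higher level, with 45.7 ± 5.15 CPM in WT and 14.2 ± 5.78 CPM in KO (log2 fold change -1.68, adjusted p = 5.58e-05).

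**Figure D5:**
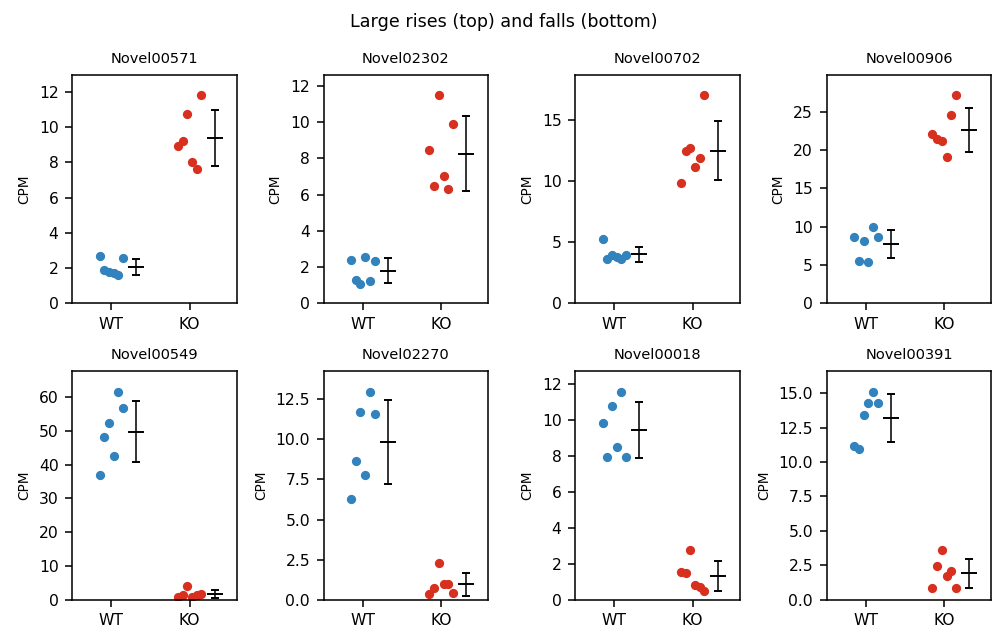
CPM in each heart for 4 loci that rose (top row) and 4 that fell (bottom row), with axes from 0, blue WT points, red KO points and bars for mean and SD, n = 6 each. The groups do not overlap in any panel; Novel00549 falls from a median near 50.4 CPM to 1.46 CPM.

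Relative to the nearest tested annotated row on its chromosome, a locus was tested with limma on the difference of the 2 log2 CPM values in each heart. Of 1343 loci with such a partner, 263 rose and 330 fell against it, 44.2%, where 45.8% of all rows were called in the same test. The 1343 include loci that were members through 1 group only, such as Novel01303 below, whose direction was built into their choice. Neither these counts nor the correlations that follow were computed without them. The log2 fold changes of locus and neighbour had Pearson's r = 0.49 within 5 kb (459 loci), 0.14 at 5 to 50 kb (470 loci) and -0.08 beyond 50 kb (414 loci), a description over rows that share libraries. For annotated rows and their neighbours the values were 0.27, 0.06 and 0.07. Within 5 kb, r was 0.64 for the 123 loci downstream on the strand of the neighbour, 0.53 for the 113 downstream on the other strand, 0.61 for the 56 upstream on the same strand and 0.18 for the 166 upstream on the other strand. In the same order, locus and neighbour had the same sign in 76.4%, 73.5%, 58.9% and 59.0%. By sign, the upstream loci on the same strand were thus like those on the other strand. Among loci whose own level and whose partner's both reached 5 CPM and whose differences did not overlap between groups, the strongest fall was at Novel01263 (chromosome 19, 36090134 to 36139864, minus strand; difference -4.23 ± 0.43 (SE), adjusted p = 6.81e-06), whose nearest tested row, 100955 bases away, was Ankrd1, a stress-responsive ankyrin repeat protein. Ankrd1 rose from 880.0 ± 137 CPM to 7420 ± 1574 CPM, and the locus had 5.53 to 8.97 CPM in the WT hearts (median 7.94) and 1.86 to 9.6 CPM in the KO hearts (median 3.23) (log2 fold change -0.95, adjusted p = 0.0355), with the third KO heart above the WT range. Without that heart its log2 fold change was -1.45, and its call was lost when any of 9 other hearts was left out.

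Of 33 sarcomere genes, 31 of them with a row under their symbol, 6 had a locus within 5 kb, 8 loci in all, of which 7 rose and none fell. Of these, 3 that rose (Novel01303, Novel01563 and Novel00105) were members through KO only, and of the other 5, 4 rose, where 25.6% of all rows rose. Novel00666 and Novel00710, both among the 4, are a mirrored pair. Novel01303 (chromosome 2, 69414626 to 69423847, plus strand) lay 2477 bases downstream of Xirp2, an actin-binding protein of the intercalated disc, on its strand. It had 0 to 0.361 CPM in the WT hearts (median 0.0414) and 1.66 to 11.5 CPM in the KO hearts (median 6.48) (log2 fold change 5.89). As a rise was built into the choice of this locus, its values are a description. The third KO heart was the lowest KO heart and still above all WT hearts. Xirp2 itself rose from 243 ± 12.1 CPM to 1387 ± 356 CPM. The difference of the locus from Xirp2, 2.83 on the log2 scale, is a description for the same reason. The mirrored loci Novel00666 and Novel00710 upstream of Myh7, the slow myosin heavy chain, had 27.2 ± 4.42 CPM in WT and 51.7 ± 8.67 CPM in KO (log2 fold change 0.93, adjusted p = 1.34e-05) and 6.61 ± 1.95 CPM in WT and 14.5 ± 3.57 CPM in KO (log2 fold change 1.14, adjusted p = 2.41e-04). Myh7 rose from 997 ± 119 CPM to 2546 ± 2086 CPM, and neither locus differed from it past the threshold.

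Downstream of the Z-disc gene Myoz2, 2 loci went against the gene. Novel01511, on the opposite strand, had 0.971 ± 0.191 CPM in WT and 3.35 ± 1.3 CPM in KO (log2 fold change 1.78, adjusted p = 1.75e-05). Novel01563, on its strand, had 0.277 ± 0.198 CPM in WT and 2.41 ± 0.716 CPM in KO (log2 fold change 3.09). Myoz2 fell from 1202 ± 57.7 CPM to 834 ± 79.2 CPM, and the difference of Novel01511 from it passed the test (2.17 ± 0.22 (SE), adjusted p = 6.89e-06). Novel01563 was a member through KO only, so its rise and its difference of 3.47 from Myoz2 are a description. Novel02589 beside Smpx and Novel00105 beside Tnnt2 rose at low levels, by 1.15 and 1.47 on the log2 scale. Novel01712, upstream of the ventricular light chain Myl2, had 24 ± 6.31 CPM in WT and 20.8 ± 9.07 CPM in KO (log2 fold change -0.21, adjusted p = 0.537).

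Of the other neighbour lists, loci within 5 kb were found for 2 of 23 calcium handling and channel genes, 1 of 46 genes of mitochondrial energy metabolism, 2 of 27 genes of hypoxia and glycolysis and 1 of 20 genes of cardiac transcription factors and noncoding RNA. Only genes with a row under their symbol could have a locus beside them. These were 23, 45, 22 and 12 genes of the 4 lists. None of the 6 loci beside these genes passed the test. Novel01500 beside the calcium store protein Casq2 had 2.09 ± 0.482 CPM in WT and 2.22 ± 0.613 CPM in KO (log2 fold change 0.08, adjusted p = 0.772), while Casq2 rose (log2 fold change 0.67). Novel01960, 330 bases downstream of the mitophagy receptor Bnip3, had 2.79 ± 0.594 CPM in WT and 3.21 ± 1.22 CPM in KO (log2 fold change 0.21, adjusted p = 0.497), while Bnip3 fell (log2 fold change -0.79), and the difference between them passed the test (0.95 ± 0.19 (SE), adjusted p = 0.0015). Novel02051 beside the ADP/ATP carrier Slc25a4 had 4.81 ± 1.02 CPM in WT and 5.66 ± 2.61 CPM in KO, and Novel00279 beside the cardiac coactivator Myocd had 4.4 ± 0.508 CPM in WT and 4.5 ± 1.58 CPM in KO. No locus lay within 5 kb of a gene of the extracellular matrix list (35 genes, 34 with a row) or the stress and natriuretic peptide list (21 genes, 19 with a row). Ankrd23 is on the latter list without a row, and Novel00075 was itself matched to it.

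By level alone, the first was Novel00083 on chromosome 1, with the description of a hypothetical tapeworm protein. It had 1174 to 2429 CPM in the WT hearts (median 1343) and 831 to 1677 CPM in the KO hearts (median 1352) and did not pass the test (log2 fold change -0.20 ± 0.21 (SE), adjusted p = 0.452). The first WT heart was far above the rest. Per length it was also high, at 1307 FPKM in WT and 1143 FPKM in KO. Novel02493, a scaffold locus described as the ubiquitin-conjugating enzyme Ube2b, had 309 to 401 CPM in the WT hearts (median 365) and 208 to 249 CPM in the KO hearts (median 213) (log2 fold change -0.72 ± 0.06 (SE), adjusted p = 8.36e-08). Novel02489, on another scaffold and without description, had 139 ± 11 CPM in WT and 173 ± 13.1 CPM in KO (log2 fold change 0.32, adjusted p = 4.22e-04). Novel02481, described as ferritin light chain, the iron storage protein, had 130.0 ± 3.0 CPM in WT and 109 ± 8.49 CPM in KO (log2 fold change -0.26, adjusted p = 5.02e-04).

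At low levels the largest differences belonged to loci that reached the limit through 1 group only, so near absence in the other was in part built in by the rule, and their values are a description. Novel00008 (chromosome 1, 33210095 to 33211050, plus strand) had 2.66 ± 0.280 CPM in WT and 0.0530 ± 0.0490 CPM in KO (log2 fold change -5.57). Novel01635 (chromosome 4, 56181204 to 56190038, minus strand), between Rad23b and Klf4, had 0.133 ± 0.133 CPM in WT and 5.46 ± 0.885 CPM in KO (log2 fold change 5.27), and Novel01852 had 0.0536 ± 0.0416 CPM in WT and 1.82 ± 0.480 CPM in KO, without overlap. Of the 2 untested loci, Novel00044 had no count in any WT heart and 2 to 100 counts in the KO hearts, and Novel02264 had 8 to 77 counts in WT and 0 to 7 in KO. At the edge of the rule, Novel01411 and Novel02357 averaged 20 counts and Novel02528 20.1, while just outside Novel00903 and Novel00283 averaged 19.9 and Novel02433 averaged 19.8.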

How the data were processed

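Bulk RNA-seq of 12 hearts, 6 WT and 6 KO, was analysed from a table with 1 row per gene or locus. The authors deposited raw counts, made with HTSeq after alignment with HISAT2 2.0.5 per the labels, and the FPKM values that the authors computed from them. The submitters' notes name mm10, whereas the identifiers belong to the C57BL/6NJ assembly; coordinates are given as in the table, and names and gene order come from RefSeq GRCm38.p6. The table's comparison and group mean columns were not used. Library totals were 23747014 to 27159228 counts in WT and 26542930 to 31393393 in KO. Low rows were filtered with filterByExpr, scaled with TMM and tested with edgeR 4.0.16 (quasi-likelihood, robust) in R 4.3.3 over all rows, with Benjamini-Hochberg adjustment. Neighbour differences were tested with limma 3.58.1 on log2 CPM with a prior count of 2. CPM values are not corrected for length. Scripts were tested on simulated data.

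Loci were named by rule: the highest 10, the 8 largest rises and falls at 5 CPM or more without overlap, the 4 largest each way against the nearest row, 3 on either side of the limit of 20 counts, the highest beside each neighbour list, the 3 highest described loci past both thresholds each way, and scaffold loci of at least 100.0 CPM. The neighbours of some named loci are not reported here. Other loci were added after their values were seen, as were the description groups and gene matches. The members and lists were chosen with earlier results of these data known. The labels do not say more of how hearts were sampled than that they are separate samples, so p-values measure the spread between these samples. DESeq2 1.42.0, other scalings, no filter, a replicate block, other limits and each library left out were the alternatives.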

Additional observations from a re-analysis of the deposited data

Results flagged for a closer look

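Of 126 groups of 6 hearts examined for a single value far from the others (Dixon's rule), 12 had one, where chance gives about 6.3, and in 6 of the 12 it was the third KO heart. That heart had 249 CPM at Novel02493 where the other KO hearts had 208 to 218, 287 CPM at Novel02381 (others 229 to 246), 4.17 CPM at Novel00549 (others 0.722 to 1.66), 2.28 CPM at Novel02270 (others 0.321 to 0.997), 9.60 CPM at Novel01263 (others 1.86 to 3.75) and 68.1 CPM at Novel00666 (others 44.5 to 52.5). The first WT heart had 2429 CPM at Novel00083 (others 1174 to 1438) and 5.24 CPM at Novel00702 (others 3.60 to 3.97). The other four were the fifth WT heart at Novel01411 (0.931 CPM, others 0.354 to 0.506), the second WT heart at Novel01582, described as Rgs3 (9.86 CPM, others 7.52 to 8.37), the sixth WT heart at Novel02481 (124 CPM, others 130 to 133) and the sixth KO heart at Novel00118 (213 CPM, others 148 to 171).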

How the results depend on the processing

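Counts of loci that rose and fell stayed within 1.5 times their values under DESeq2 (342 and 396), without a filter (300 and 350) and with a replicate block (308 and 359); hearts with the same number did not deviate together (correlations from -0.162 to 0.024), so the block was not used. With at least 100 counts on average as the limit, 164 rose and 172 fell, 43 and 29 of them past both thresholds. With at least 20 counts in each group, an alternative added after seeing the data, 249 rose and 281 fell, 75 and 74 of them past both thresholds. With partners within 5 kb, 83 loci rose and 83 fell against the neighbour. Leaving out each library gave 292 to 317 rises, 343 to 405 falls, and 236 to 264 rises and 290 to 325 falls against the neighbour. Of 588 values of the 98 named loci under other settings 576 kept their direction and call, and of 1176 with a library left out 1112 did. None of the loci that changed sign had passed the test: Novel00279 was -0.027 with the replicate block and -0.11 to 0.16 over the libraries left out, Novel01500 was -0.038 to 0.20 and Novel00015 was -0.23 to 0.063. The calls of Novel01263, Novel01411, Novel00972, Novel01974 and Novel02325 were each lost when single libraries were left out. The cause was not tested. Low loci rest on few counts, and reads of near-identical copies cannot be assigned with certainty.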
